A study of Mus musculus with 14 samples.

Results

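The genes of cholesterol and fatty acid synthesis were followed in mouse MLL-AF9-Cas9+ leukemia cells given a guide RNA against Sgf29, the reader subunit of the SAGA and ATAC histone acetyltransferase complexes. The 39 genes were chosen by symbol: 18 enzymes of the route from acetyl-CoA to cholesterol, 7 regulators of the SREBP and LXR pathways, 4 genes of cholesterol efflux and esterification, and 10 enzymes of fatty acid synthesis, desaturation and elongation. All 39 are among the 22155 genes of the count table, and 38 passed the filter on low counts. The exception was Abca1. For both groups of libraries, lineage-negative bone marrow cells had been transformed by a retrovirus carrying MLL-AF9 and transplanted into sublethally irradiated mice. Leukemic blasts taken from these mice once diseased were grown in medium with fetal bovine serum, stem cell factor, interleukin 3 and interleukin 6. The cells were made to express Cas9 by a lentivirus and selected in puromycin at 2 μg/ml for 3 days. The 3 sgSgf29 libraries carried a guide RNA against Sgf29, and the 3 sgCtrl libraries carried a control guide RNA. Nothing in the labels says whether the numbers 1 to 3 stand for separate cultures or for different guide sequences, so the spread behind every p-value is that of these libraries and may be technical. The question was which steps of lipid synthesis differed in mRNA level between the sgSgf29 and the sgCtrl cells.

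Cholesterol is built from acetyl-CoA through mevalonate, farnesyl pyrophosphate, squalene and lanosterol, and fatty acids from the same acetyl-CoA by carboxylation and chain extension. When sterol is scarce, the protein SCAP carries the SREBP factors (products of Srebf1 and Srebf2) out of the endoplasmic reticulum, where INSIG proteins otherwise hold them, and the released factors switch on the enzyme genes. When sterol is plentiful, the LXR receptors (products of Nr1h2 and Nr1h3) bind oxysterols and switch on efflux, while SOAT enzymes store the surplus as cholesteryl ester, a process well known from macrophages.

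Sgf29 itself, measured first as a check of the labels, had 12.6, 13.4 and 17.4 CPM in the sgSgf29 libraries, against 36.2, 40.4 and 40.4 CPM in the sgCtrl libraries. Levels are given as CPM, counts brought to a common library depth after TMM scaling, a correction of library sizes by a trimmed mean over genes. The log2 fold change of Sgf29 was -1.43 (standard error 0.11, edgeR adjusted p = 2.9e-10). If strand was not used, its counts may include reads of 2510046G10Rik, an antisense gene over 9.4% of its exon bases that was not counted. Sult1a1, also in antisense, shares 3.4% of them and had at most 13 counts in a library. Throughout, a gene was called at an adjusted p under 0.05 from the quasi-likelihood test of edgeR, adjusted over all 11169 genes tested. The libraries held 16085601 to 20185751 gene counts in sgSgf29 and 16003990 to 21786618 in sgCtrl. Of all genes tested, 69.8% were called in either direction, 35.4% higher and 34.4% lower. The shift was accompanied by markers of maturing myeloid cells. Of 14 listed markers of monocytes and macrophages, 8 were tested and 7 rose, with a summed level of 1154 to 1206 CPM in sgSgf29 and 534 to 553 CPM in sgCtrl, while Mrc1, Cd163 and Marco had no count. Of 10 neutrophil markers, 8 rose and 2 fell, with sums of 24629 to 26059 CPM in sgSgf29 and 8347 to 9097 CPM in sgCtrl. Of 10 markers of myeloid progenitors, the class nearest to the labelled cells, 9 were tested, 7 fell and 2 rose, with sums of 11398 to 12113 CPM in sgSgf29 and 22186 to 24831 CPM in sgCtrl, while Cd34 had no count. Each sum is carried by a few abundant genes and is no level of its whole list. Elane averaged 9302 CPM in sgSgf29 and 14238 CPM in sgCtrl cells. Among neutrophil markers, S100a8 and S100a9 averaged 7967 and 13074 CPM in sgSgf29 and 2779 and 3447 CPM in sgCtrl cells. The part of maturing cells in the lipid results was not tested, and in these bulk libraries fewer cells of a type and less RNA per cell cannot be told apart. Markers of fat cells and of liver cells, the tissues best known for lipid synthesis, summed to at most 0.0901 and 0.147 CPM in sgSgf29 and 0.0999 and 0.150 CPM in sgCtrl libraries, with Cidec, Fabp4, Lep, Ttr, Cyp7a1 and Apob at 0. Markers of erythroid, megakaryocyte, mast, B, T and NK cells and of fibroblasts summed per list to at most 7.50 CPM in sgSgf29 and 10.1 CPM in sgCtrl libraries.

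Of the 38 members tested, 13 rose, 17 fell and 8 did not pass, so that 78.9% were called, against the 69.8% of all genes. Their median change in either direction was 0.32 on the log2 scale, against 0.42 over all genes tested, and 8 of the 38 (21.1%) were called with a change of at least 1.5-fold, against 34.3% of all genes. The median signed log2 fold change was -0.016 for the members and 0.011 for all genes. The groups did not overlap for 29 members, 12 higher and 17 lower, while 72.1% of all genes did not overlap, 37% higher and 35.1% lower. Later statements that groups did not overlap are read against these shares. How the libraries were scaled mattered for small changes: with library size alone the median of all genes moved to 0.24, and 19 members were higher and 8 lower. Of all genes called, 30.0% were then lower, against 49.3% with TMM. Ribosomal protein genes took 12.5% to 14.1% of gene counts in sgSgf29 and 19.5% to 20.2% in sgCtrl libraries. The members together took 0.280% to 0.292% of gene counts in sgSgf29 and 0.256% to 0.262% in sgCtrl libraries before scaling, while after TMM they summed to 2564 to 2684 CPM in sgSgf29 and 2741 to 2853 CPM in sgCtrl libraries, so the direction of their total turned with the scaling.

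**Figure D1:**
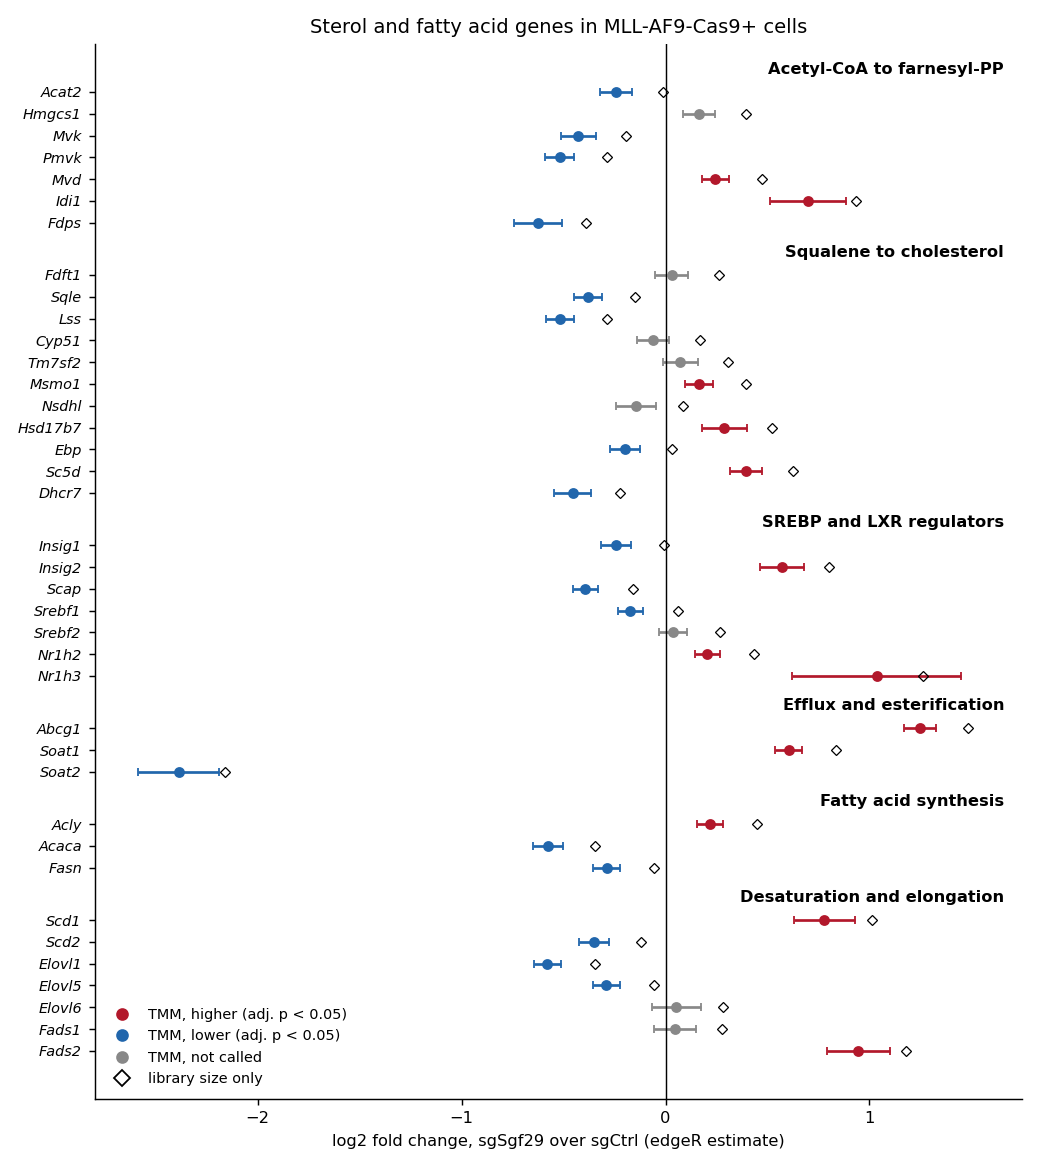
Log2 fold change of the 38 tested members, sgSgf29 over sgCtrl, by role and in pathway order. Filled points are edgeR estimates after TMM with their standard errors (3 libraries per group), and open diamonds are the estimates with scaling by library size only, each to the right of its filled point and across 0 for Cyp51, Nsdhl, Ebp and Srebf1. Soat2 lies farthest to the left at -2.39 and Abcg1 farthest to the right at 1.25.

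The sequences around the start sites of these genes were inspected, since the enzymes are known as shared targets of SREBP. RefSeq promoters (GRCm38.p6, 250 bases before to 50 bases after the start) were matched for 31 of the 39 members, of which 11 rose, 13 fell, 6 did not pass and 1 was not tested. The others were Fads1, Fdps, Sqle, Soat2, Abcg1, Scd1, Fdft1 and Scd2. The SREBP consensus TCACNCCAC, searched on both strands, was found in the Hmgcs1 promoter among the 31 members. It was found in 1.44% of all 27025 genes with a promoter in the table, and in 1.24% of the 32851 promoters. Its shorter form CACNCCAC, which overlaps the longer one, was present in Hmgcs1, Acat2 and Insig1 and in 7.12% of all genes (6.24% of promoters). CCAAT, the motif of NF-Y, a partner of SREBP, was found on either strand in 23 of the 31 members, of which 8 rose, 10 fell and 5 did not pass, and in 41.1% of all genes (37.4% of promoters). Promoters of genes that rose and of genes that fell thus both held CCAAT, and the sequences of Hmgcs1 (not called), Mvd (higher), Mvk (lower) and Insig1 (lower) are shown to let these be compared, each 5′ to 3′ in the direction of transcription. Capitals mark TCACNCCAC and CCAAT on either strand (ATTGG is CCAAT on the other strand).
Hmgcs1 (chr13:119690101-119690400, plus strand): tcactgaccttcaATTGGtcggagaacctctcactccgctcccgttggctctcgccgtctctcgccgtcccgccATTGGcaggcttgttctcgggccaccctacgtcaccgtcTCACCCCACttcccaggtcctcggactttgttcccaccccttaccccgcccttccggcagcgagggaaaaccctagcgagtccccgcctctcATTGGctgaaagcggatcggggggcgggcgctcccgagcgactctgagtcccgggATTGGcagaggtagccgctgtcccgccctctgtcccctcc
Mvd (chr8:122443373-122443672, minus strand): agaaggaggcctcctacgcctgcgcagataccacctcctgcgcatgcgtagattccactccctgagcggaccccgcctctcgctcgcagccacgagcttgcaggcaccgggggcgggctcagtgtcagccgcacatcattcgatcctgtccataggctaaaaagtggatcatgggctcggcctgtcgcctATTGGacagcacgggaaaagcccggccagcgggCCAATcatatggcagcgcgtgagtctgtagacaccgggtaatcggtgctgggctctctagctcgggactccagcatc
Mvk (chr5:114444019-114444318, plus strand): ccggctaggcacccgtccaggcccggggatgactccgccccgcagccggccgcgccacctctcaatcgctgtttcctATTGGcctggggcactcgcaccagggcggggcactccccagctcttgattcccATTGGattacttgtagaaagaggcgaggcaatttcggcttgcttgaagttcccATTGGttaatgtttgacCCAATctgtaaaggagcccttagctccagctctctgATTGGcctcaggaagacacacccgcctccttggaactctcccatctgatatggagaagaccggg
Insig1 (chr5:28071162-28071461, plus strand): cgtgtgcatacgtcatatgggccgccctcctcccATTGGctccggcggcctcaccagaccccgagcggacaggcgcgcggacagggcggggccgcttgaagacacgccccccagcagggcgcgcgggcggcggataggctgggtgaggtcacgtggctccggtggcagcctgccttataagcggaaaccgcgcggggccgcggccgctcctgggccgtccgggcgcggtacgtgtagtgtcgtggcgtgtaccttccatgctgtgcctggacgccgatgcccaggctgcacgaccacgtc
In Hmgcs1 the SREBP match begins 137 bases before the start and lies between CCAAT matches that begin at 176 and 45 bases before it. Other motifs searched were also frequent, so CCAAT was not particular in this. GGGCGG, listed for Sp1, was found in 24 of the 31 members and in 38.2% of all genes. The E-box CACGTG was found in 7 of the 31 members and in 8.09% of all genes. The shares over all genes were not limited to genes tested here. A match is a description of the letters and no evidence of binding. Only these exact letters were searched, and only near the start, so a missing match is no evidence that a site is absent.

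The early steps from acetyl-CoA to farnesyl pyrophosphate moved in both directions. Of 7 enzymes, 4 fell, 2 rose and 1 did not pass, so 85.7% were called, against 69.8% of all genes. In this and the later steps the counts are read against the 35.4% of all genes that rose and the 34.4% that fell. Mvk, which phosphorylates mevalonate, had 24.9, 25.7 and 30.0 CPM in the sgSgf29 libraries, against 35.01, 35.8 and 37.7 CPM in the sgCtrl libraries. Its log2 fold change of -0.43 (standard error 0.087, edgeR adjusted p = 1.9e-04) was followed by that of the next kinase in the route. Pmvk had 50.6, 44.0 and 49.8 CPM in the sgSgf29 libraries, against 73.8, 66.7 and 66.5 CPM in the sgCtrl libraries, a log2 fold change of -0.52 (standard error 0.073, edgeR adjusted p = 2.6e-06). For both kinases every sgSgf29 library lay below every sgCtrl library. The next enzyme, the decarboxylase Mvd, went the other way, with 89.5, 84.5 and 82.9 CPM in the sgSgf29 libraries, against 72.7, 74.7 and 69.4 CPM in the sgCtrl libraries. It rose, with a log2 fold change of 0.24 (standard error 0.065, edgeR adjusted p = 0.0022), and the groups did not overlap. Idi1, which isomerizes isopentenyl pyrophosphate, had 7.97, 10.6 and 11.2 CPM in the sgSgf29 libraries, against 4.38, 5.49 and 8.24 CPM in the sgCtrl libraries. It rose, with a log2 fold change of 0.70 (standard error 0.19, edgeR adjusted p = 0.0024), although sgSgf29 1 lay below sgCtrl 3. Of the exon bases of Idi1, 9.2% are shared with Gm48574 on the opposite strand, which was not counted. If strand was not used, the counts of Idi1 may include its reads. Fdps, the farnesyl pyrophosphate synthase, had 10.3, 9.51 and 9.72 CPM in the sgSgf29 libraries, against 16.5, 13.7 and 15.1 CPM in the sgCtrl libraries. Its groups did not overlap, with a log2 fold change of -0.62 (standard error 0.12, edgeR adjusted p = 7.6e-05). Of the exon bases of Fdps, 26.7% are shared on the same strand with Gm43738, which had almost no counts, so that reads from that part may have been set aside as ambiguous.

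At the entry to the route, Hmgcs1, the synthase of HMG-CoA, had 60.5, 58.1 and 57.0 CPM in the sgSgf29 libraries, against 47.2, 49.3 and 59.6 CPM in the sgCtrl libraries. The library sgCtrl 3 lay within the range of the sgSgf29 libraries, and the log2 fold change of 0.16 (edgeR adjusted p = 0.074) did not pass. With each library left out in turn it ran from 0.097 to 0.28, with an edgeR adjusted p of up to 0.34. Only without sgCtrl 3 did it pass (0.28, edgeR adjusted p = 0.0012). Hmgcs1 shares 12.1% of its exon bases with Gm48342 in antisense, which was not counted, so the limit given for Idi1 holds here too. Acat2, the thiolase that joins acetyl-CoA units, had 37.7, 34.6 and 34.5 CPM in the sgSgf29 libraries, against 44.9, 39.3 and 42.0 CPM in the sgCtrl libraries. It fell slightly, with a log2 fold change of -0.24 (standard error 0.078, edgeR adjusted p = 0.0092), and did not pass without sgSgf29 2 (edgeR adjusted p = 0.058) or without sgCtrl 1 (edgeR adjusted p = 0.057). Mouse Acat3, a close copy of Acat2 that may share reads with it, had 27.4, 18.2 and 23.3 CPM in the sgSgf29 libraries, against 44.9, 48.5 and 37.1 CPM in the sgCtrl libraries. Scaled by library size alone, Acat2 and Mvk had log2 fold changes of -0.010 (edgeR adjusted p = 0.91) and -0.19 (edgeR adjusted p = 0.061).

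Between squalene and cholesterol, 4 of 11 enzymes fell, 3 rose and 4 did not pass. The share called was 63.6%, against 69.8% of all genes. No change reached 1.5-fold, while 35.6% of all genes tested did. Of the enzymes that fell, Sqle and Lss stand at the entry of this stretch and Dhcr7 at its end. Sqle, the squalene epoxidase, had 65.2, 61.9 and 68.5 CPM in the sgSgf29 libraries, against 78.7, 89.3 and 86.4 CPM in the sgCtrl libraries. Lss, which folds the epoxide into lanosterol, had 38.1, 37.5 and 39.5 CPM in the sgSgf29 libraries, against 55.5, 55.8 and 53.6 CPM in the sgCtrl libraries. Sqle and Lss had log2 fold changes of -0.38 (edgeR adjusted p = 5.7e-05) and -0.52 (edgeR adjusted p = 1.2e-06), and all sgSgf29 libraries lay below all sgCtrl libraries for both. Scaled by library size, Sqle was at -0.15 (edgeR adjusted p = 0.069). Dhcr7, the reductase of the last step to cholesterol, had 35.3, 30.2 and 35.2 CPM in the sgSgf29 libraries, against 51.5, 40.3 and 45.8 CPM in the sgCtrl libraries, a log2 fold change of -0.45 (standard error 0.091, edgeR adjusted p = 1.6e-04). Its substrate is made by Sc5d, which changed in the opposite direction. Sc5d, a sterol desaturase, had 47.7, 41.7 and 44.4 CPM in the sgSgf29 libraries, against 32.3, 33.7 and 35.5 CPM in the sgCtrl libraries, a log2 fold change of 0.39 (standard error 0.078, edgeR adjusted p = 1.4e-04). The groups of Dhcr7 and of Sc5d did not overlap.

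The steps in between changed little. Ebp, the sterol isomerase, had 49.1, 42.6 and 43.9 CPM in the sgSgf29 libraries, against 51.2, 52.8 and 51.4 CPM in the sgCtrl libraries, a log2 fold change of -0.20 (edgeR adjusted p = 0.02). Msmo1, the methyl sterol oxidase, had 58.7, 56.9 and 54.4 CPM in the sgSgf29 libraries, against 51.5, 50.4 and 49.9 CPM in the sgCtrl libraries, a log2 fold change of 0.16 (edgeR adjusted p = 0.036). Hsd17b7, a sterol ketoreductase, averaged 15.2 ± 0.769 CPM in sgSgf29 and 12.4 ± 1.03 CPM in sgCtrl cells, with a log2 fold change of 0.29 (edgeR adjusted p = 0.026). Each of these calls was lost when single libraries were left out. Ebp did not pass without sgSgf29 2, sgSgf29 3 or sgCtrl 2 (edgeR adjusted p = 0.14, 0.088 and 0.052), and its direction turned with scaling by library size (0.032). Msmo1 did not pass without sgSgf29 1, sgSgf29 2, sgCtrl 1, sgCtrl 2 or sgCtrl 3 (edgeR adjusted p = 0.094, 0.073, 0.058, 0.077 and 0.051) nor with DESeq2 (adjusted p = 0.081). Hsd17b7 did not pass without sgSgf29 1 or sgCtrl 1 (edgeR adjusted p = 0.071 and 0.12) nor with DESeq2 (adjusted p = 0.055).

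Among the members that did not pass, Cyp51, the lanosterol demethylase, averaged 33.7 ± 1.15 CPM in sgSgf29 and 35.1 ± 1.96 CPM in sgCtrl cells (SD, n = 3 each). Tm7sf2, a sterol reductase, averaged 31.8 ± 1.98 CPM in sgSgf29 and 30.3 ± 2.35 CPM in sgCtrl cells. Nsdhl, a sterol dehydrogenase, averaged 20.6 ± 1.16 CPM in sgSgf29 and 22.8 ± 2.08 CPM in sgCtrl cells. Fdft1, the squalene synthase, averaged 50.5 ± 6.22 CPM in sgSgf29 and 49.3 ± 1.09 CPM in sgCtrl cells. Their log2 fold changes were -0.062 (edgeR adjusted p = 0.50), 0.072 (edgeR adjusted p = 0.46), -0.15 (edgeR adjusted p = 0.19) and 0.030 (edgeR adjusted p = 0.75). Of the exon bases of Fdft1, 18.3% are shared with Ctsb on the opposite strand, and Ctsb rose to 298 ± 9.97 CPM in sgSgf29, against 182 ± 5.32 CPM in sgCtrl cells. Reads of Fdft1 and Ctsb from that part cannot be told apart if strand was not used in counting. Tm7sf2 shares 12.1% of its exon bases with Vps51 on the same strand.

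Calls among the regulators went both ways, as over all genes, and Insig1 and Insig2 moved apart. Of 7 regulators, 3 rose, 3 fell and 1 did not pass, while 35.4% of all genes rose and 34.4% fell. Insig2, a retention protein for SCAP, had 23.9, 23.4 and 25.7 CPM in the sgSgf29 libraries, against 13.7, 18.1 and 17.3 CPM in the sgCtrl libraries. Insig2 rose, with a log2 fold change of 0.57 (standard error 0.11, edgeR adjusted p = 7.6e-05), and the groups did not overlap. Insig1, its relative and itself a known SREBP target, had 55.4, 51.4 and 53.7 CPM in the sgSgf29 libraries, against 59.6, 60.2 and 69.4 CPM in the sgCtrl libraries. It fell, with a log2 fold change of -0.24 (standard error 0.073, edgeR adjusted p = 0.0061), and every sgSgf29 library lay below every sgCtrl library. The count of Insig2 for each count of Insig1 in the same library, a ratio that no scaling can move, was 0.432, 0.455 and 0.479 in the sgSgf29 libraries, against 0.229, 0.300 and 0.250 in the sgCtrl libraries. The ratio was 1.76-fold higher in the sgSgf29 libraries, with no overlap. When scaled by library size the change of Insig1 was -0.0095 (edgeR adjusted p = 0.91).

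Scap, the escort of SREBP, had 90.2, 92.2 and 91.6 CPM in the sgSgf29 libraries, against 122, 123 and 115 CPM in the sgCtrl libraries. Its log2 fold change of -0.39 (standard error 0.062, edgeR adjusted p = 9.6e-06) passed under each of the 4 other scalings. Of the exon bases of Scap, 13.2% are shared with 5830462I19Rik on the opposite strand, which was not counted. Srebf1, which encodes the SREBP form best known for fatty acid genes, had 109, 107 and 108 CPM in the sgSgf29 libraries, against 126, 117 and 122 CPM in the sgCtrl libraries. This small fall had a log2 fold change of -0.17 (standard error 0.061, edgeR adjusted p = 0.017) and turned to 0.059 with scaling by library size. It did not pass without sgSgf29 2, sgSgf29 3 or sgCtrl 1 (edgeR adjusted p = 0.076, 0.053 and 0.078). Srebf1 also shares 1.9% of its exon bases with Rai1 on the opposite strand, and Rai1 fell too (log2 fold change -0.98, edgeR adjusted p = 5.9e-10). Reads from shared parts of Scap and Srebf1 cannot be told apart if strand was not used in counting. Srebf2, which encodes the form best known for cholesterol genes, had 187, 166 and 179.8 CPM in the sgSgf29 libraries, against 177, 159.9 and 183 CPM in the sgCtrl libraries, and its groups overlapped. The count of Srebf1 for each count of Srebf2 was 0.583, 0.642 and 0.600 in the sgSgf29 libraries, against 0.711, 0.733 and 0.664 in the sgCtrl libraries. Every sgSgf29 library had a lower ratio than every sgCtrl library, and the ratio was 0.866 times as large on average.

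Of the LXR receptors, the widely expressed Nr1h2 had 191, 188 and 181 CPM in the sgSgf29 libraries, against 169.9, 161 and 155 CPM in the sgCtrl libraries. It rose, with a log2 fold change of 0.20 (standard error 0.063, edgeR adjusted p = 0.0066), and the groups did not overlap, although a processed copy, Nr1h2-ps, may share reads with it. Nr1h3, the form known from macrophages and liver, had few counts, with 23, 24 and 16 counts in the sgSgf29 and 5, 11 and 10 counts in the sgCtrl libraries. At 1.35, 1.08 and 0.782 CPM in the sgSgf29 libraries, against 0.318, 0.737 and 0.500 CPM in the sgCtrl libraries, its log2 fold change was 1.03 (edgeR adjusted p = 0.031). This call was lost without sgSgf29 1, sgSgf29 2, sgCtrl 1 or sgCtrl 3 (edgeR adjusted p = 0.11, 0.078, 0.13 and 0.076) and with DESeq2 (adjusted p = 0.075).

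The largest changes among the tested members, by fitted log2 fold change, were in efflux and esterification, where 2 of 3 tested genes rose and 1 fell. Of all genes, 35.4% rose and 34.4% fell. Abcg1, a transporter that exports cholesterol to lipoproteins (GRCm38 chr17:31057694-31117984), had 51.0, 52.1 and 54.7 CPM in the sgSgf29 libraries, against 20.7, 22.2 and 23.4 CPM in the sgCtrl libraries. The mean was 2.38 times as high in the sgSgf29 as in the sgCtrl cells, a log2 fold change of 1.25 (standard error 0.079, edgeR adjusted p = 2.1e-11). The lowest sgSgf29 library was far above the highest sgCtrl library. Abca1, the other known cholesterol exporter of macrophages, was nearly silent, with 3, 6 and 12 counts in the sgSgf29 and 5, 0 and 0 counts in the sgCtrl libraries, and was not tested.

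Soat1 and Soat2, which encode the enzymes that esterify cholesterol, changed in opposite directions. Soat2, the form known from liver and intestine (GRCm38 chr15:102150415-102163469), had 3.75, 2.34 and 2.05 CPM in the sgSgf29 libraries, against 11.8, 17.3 and 12.9 CPM in the sgCtrl libraries. It fell to 0.193 of its mean level in sgCtrl cells, a log2 fold change of -2.39 (standard error 0.20, edgeR adjusted p = 1.2e-09). Soat1, the form known from macrophages (GRCm38 chr1:156428108-156474328), had 109, 119 and 121 CPM in the sgSgf29 libraries, against 78.9, 71.9 and 78.6 CPM in the sgCtrl libraries. It rose, with a log2 fold change of 0.60 (standard error 0.067, edgeR adjusted p = 8.9e-08). Neither gene showed an overlap between groups, and both calls stood under each of the 17 alternatives, which included each library left out in turn. The count of Soat2 for each count of Soat1 was 0.0344, 0.0198 and 0.0169 in the sgSgf29 libraries, against 0.150, 0.241 and 0.165 in the sgCtrl libraries. On average this ratio was 0.125 times as large in the sgSgf29 libraries. Levels of the pair can be compared only per length of exon, taken from GENCODE. On that scale Soat2 averaged 1.23 ± 0.410 CPM per kb in sgSgf29 and 6.34 ± 1.32 CPM per kb in sgCtrl cells (SD, n = 3 each). Soat1 averaged 11.9 ± 0.665 CPM per kb in sgSgf29 and 7.81 ± 0.403 CPM per kb in sgCtrl cells. By these means Soat2 stood below Soat1 in both groups, with a wider gap in the sgSgf29 cells. In the library sgCtrl 2, however, Soat2 per kb lay above Soat1, so their order was not the same in every sgCtrl library.

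**Figure D2:**
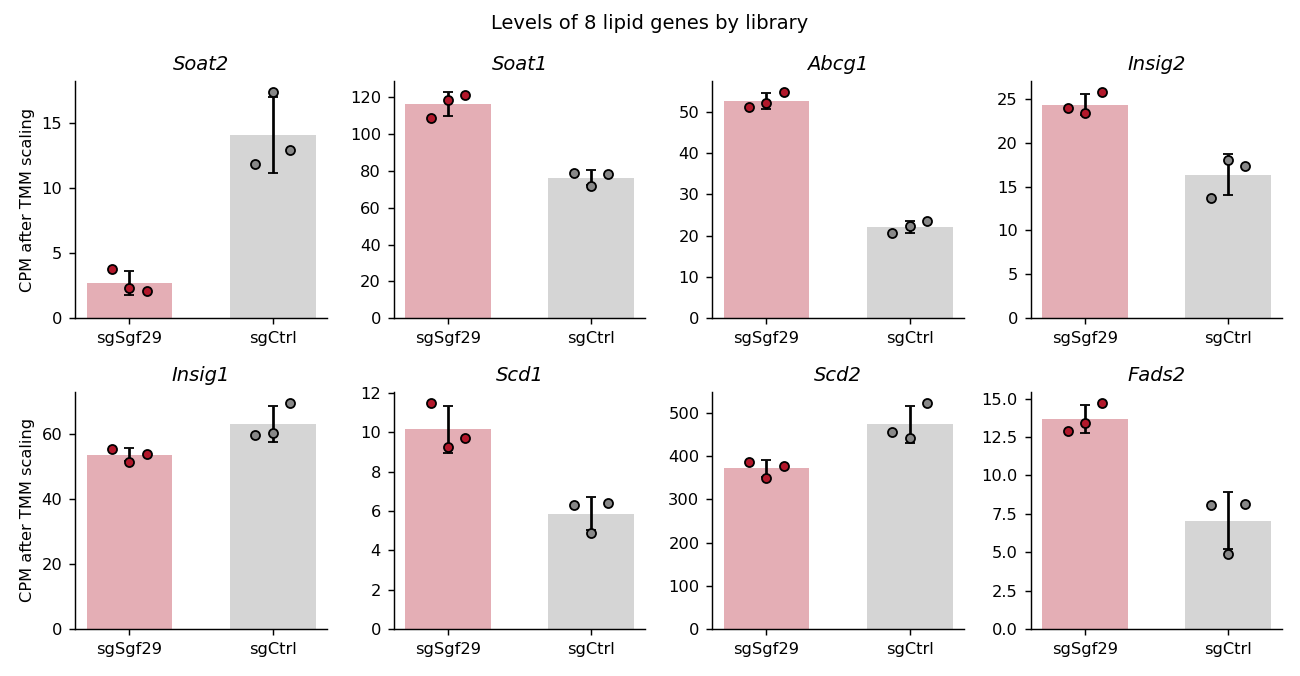
CPM after TMM scaling of 8 members in the sgSgf29 (left) and sgCtrl (right) cells. Each bar is a mean of 3 libraries with its SD and each point a library, and in every panel the points of the groups do not overlap, with sgSgf29 lower for Soat2, Insig1 and Scd2 and higher for the other genes. Of all genes tested, 72.1% likewise did not overlap. Insig1 and Scd2 did not pass when scaled by library size only.

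In fatty acid synthesis, 2 of 3 enzymes fell and 1 rose, where 34.4% of all genes fell and 35.4% rose. Acly, which splits citrate into acetyl-CoA, had 301, 318 and 335 CPM in the sgSgf29 libraries, against 268, 286 and 266 CPM in the sgCtrl libraries. Its level rose, with a log2 fold change of 0.22 (standard error 0.065, edgeR adjusted p = 0.0053). Acaca, the carboxylase that commits acetyl-CoA to fatty acids, had 38.4, 36.5 and 40.9 CPM in the sgSgf29 libraries, against 61.1, 56.8 and 55.2 CPM in the sgCtrl libraries, a log2 fold change of -0.58 (standard error 0.073, edgeR adjusted p = 5.9e-07). Fasn, the fatty acid synthase, had 141, 147 and 164 CPM in the sgSgf29 libraries, against 187, 176 and 188 CPM in the sgCtrl libraries, a log2 fold change of -0.29 (standard error 0.067, edgeR adjusted p = 7.4e-04). None of the 3 genes showed an overlap between groups. On library size alone the change of Fasn shrank to -0.057 (edgeR adjusted p = 0.47), whereas Acaca stayed called.

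Of the 7 desaturases and elongases that modify the product, 3 fell, 2 rose and 2 did not pass. The share called was 71.4%, against 69.8% of all genes. Scd2, an oleate-forming desaturase and, per kb of exon, the member with the highest level in both groups (GRCm38 chr19:44293676-44306864), had 388, 350.1 and 377 CPM in the sgSgf29 libraries, against 456, 443 and 523 CPM in the sgCtrl libraries. It fell, with a log2 fold change of -0.35 (standard error 0.072, edgeR adjusted p = 2.1e-04). Its neighbour Scd1 (GRCm38 chr19:44394450-44407709), the form known from liver, had 11.5, 9.24 and 9.72 CPM in the sgSgf29 libraries, against 6.29, 4.89 and 6.39 CPM in the sgCtrl libraries, and rose, with a log2 fold change of 0.78 (standard error 0.15, edgeR adjusted p = 1.1e-04). The count of Scd1 for each count of Scd2 was 0.0296, 0.0264 and 0.0258 in the sgSgf29 libraries, against 0.0138, 0.0110 and 0.0122 in the sgCtrl libraries. This ratio was 2.21-fold higher in the sgSgf29 libraries, while Scd2 stayed by far the more abundant, at 68.0 ± 3.55 CPM per kb in sgSgf29 and 86.8 ± 7.91 CPM per kb in sgCtrl cells (SD, n = 3 each). Scd1 averaged 2.08 ± 0.242 CPM per kb in sgSgf29 and 1.20 ± 0.172 CPM per kb in sgCtrl cells. Scaled by library size, the change of Scd2 was -0.12 (edgeR adjusted p = 0.12), and that of Scd1 was 1.01.

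Fads2, the first desaturase of polyunsaturated fatty acids (GRCm38 chr19:10062765-10101503), had 12.9, 13.4 and 14.7 CPM in the sgSgf29 libraries, against 8.07, 4.89 and 8.14 CPM in the sgCtrl libraries. Fads2 rose, with a log2 fold change of 0.95 (standard error 0.15, edgeR adjusted p = 1.6e-05), and sgCtrl 2 was the lowest of all libraries. Fads1, the desaturase that acts after it (GRCm38 chr19:10182877-10196874), had 19.0, 20.4 and 23.3 CPM in the sgSgf29 libraries, against 18.7, 19.5 and 22.3 CPM in the sgCtrl libraries, with overlap between the groups. The count of Fads2 for each count of Fads1 was 0.679, 0.657 and 0.632 in the sgSgf29 libraries, against 0.430, 0.251 and 0.365 in the sgCtrl libraries, and the groups of ratios did not overlap. Of the elongases, Elovl1, which extends very long saturated chains, had 96.3, 101 and 105 CPM in the sgSgf29 libraries, against 158, 152 and 142 CPM in the sgCtrl libraries. It fell, with a log2 fold change of -0.58 (standard error 0.065, edgeR adjusted p = 1.1e-07), and overlaps Cdc20 on the opposite strand by 1.9% of its exon bases. Elovl5, which extends polyunsaturated chains, had 57.2, 63.3 and 62.6 CPM in the sgSgf29 libraries, against 74.2, 75.7 and 74.3 CPM in the sgCtrl libraries, a log2 fold change of -0.29 (edgeR adjusted p = 5.8e-04). By library size alone Elovl5 was at -0.058 (edgeR adjusted p = 0.47). Elovl6, which extends palmitate, averaged 18.7 ± 1.28 CPM in sgSgf29 and 18.0 ± 3.55 CPM in sgCtrl cells (SD, n = 3 each), a difference within the spread between libraries.

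**Figure D3:**
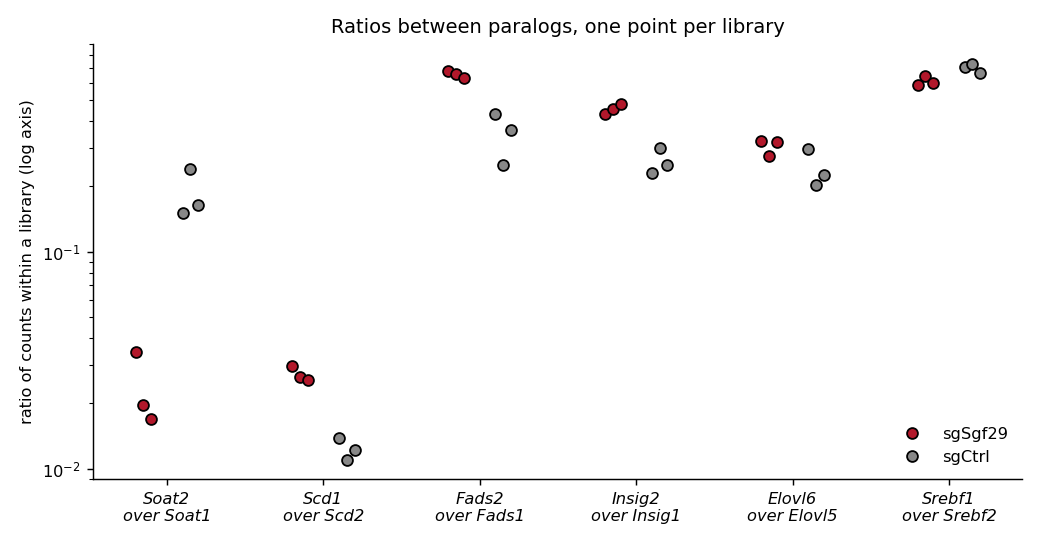
Ratio of the counts of related genes within each library (log axis), with sgSgf29 left and sgCtrl right for each pair and a point for each of 3 libraries. The ratio of Soat2 to Soat1 is lower in sgSgf29 (0.0169 to 0.0344, against 0.150 to 0.241 in sgCtrl), those of Scd1 to Scd2, Fads2 to Fads1 and Insig2 to Insig1 are higher, and those of Elovl6 to Elovl5 overlap.

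In lists of genes around these pathways, the calls in cholesterol transport and storage, in SREBP processing and sterol sensing and in triglyceride and phospholipid synthesis were mostly higher. In each list the count is read against the 35.4% of all genes that rose and the 34.4% that fell. Of 15 tested genes of cholesterol transport and storage, 12 rose and 1 fell, with a median log2 fold change of 0.41. Lrp1, an endocytic receptor of lipoproteins, was at 3.03 (edgeR adjusted p = 4.2e-17). Nceh1, a hydrolase of cholesteryl esters, was at 2.13 (edgeR adjusted p = 6.0e-14). Lipa, the lysosomal acid lipase that frees cholesterol from ingested lipoprotein, was at 1.42 (edgeR adjusted p = 4.8e-12). Of 16 genes of SREBP processing and sterol sensing, 10 rose and 1 fell, with a median of 0.25. The gene that fell was Tmem97, a sterol-regulated membrane protein, at -1.04 (edgeR adjusted p = 1.0e-10). Erlin1, a membrane protein of the endoplasmic reticulum, was at 0.47 (edgeR adjusted p = 5.0e-06). Of 8 tested LXR targets, 4 rose and 2 fell, with a median of 0.14.

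Of 26 tested genes of triglyceride and phospholipid synthesis, 14 rose and 5 fell, with a median log2 fold change of 0.39. Plin2, the coat protein of lipid droplets, Acsl1, which activates fatty acids, and Cds2, a synthase of phospholipid precursors, were at 1.21, 1.26 and 1.30. Scaled by library size alone, 18 genes of this list were higher and 3 lower, 13 and 0 of cholesterol transport and storage, and 13 and 1 of SREBP processing. By that scaling 5575 of all 11169 genes were higher and 2385 lower. The larger numbers of higher genes are read against this shift of all genes. Of 27 genes of fatty acid oxidation, 12 rose and 7 fell, with a median of 0.070. Cpt1a, which admits fatty acids into mitochondria, the peroxisomal oxidase Acox3 and the receptor Ppard were at 1.25, 1.25 and 1.01. Of 15 genes of acetyl-CoA and NADPH supply, 5 rose and 5 fell. Acss2, which makes acetyl-CoA from acetate, was at 1.84 (edgeR adjusted p = 6.9e-11), whereas the mitochondrial citrate carrier Slc25a1 and the coenzyme A synthase Coasy were at -0.82 and -0.76.

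The isoprenoid branch, which draws on farnesyl pyrophosphate, had 6 of 16 genes higher and 6 lower. Rabggtb, a subunit of the transferase that prenylates Rab proteins, was at -1.50 (edgeR adjusted p = 8.8e-13), and Chm, its escort protein, at 1.10 (edgeR adjusted p = 4.1e-07). Coq2, of ubiquinone synthesis, was at -0.77. Of 14 tested genes of other elongation and desaturation steps and of ceramide synthesis, 5 rose and 7 fell, with Degs1, the dihydroceramide desaturase, at 1.34, Ugcg, the glucosylceramide synthase, at 0.85 and Hacd1, a dehydratase of chain extension, at -0.95. Under library size scaling the medians of the acetyl-CoA and NADPH list and of the elongation and ceramide list were 0.12 and 0.13. With TMM they were -0.11 and -0.10. The median of all genes moved likewise, from 0.011 with TMM to 0.24, and both lists lay below it under either scaling. The other lists kept a positive median, which by itself shows little where the median of all genes is 0.24. The markers of monocytes and of neutrophils rose in the same libraries, and their part in these counts was not tested.

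**Figure D4:**
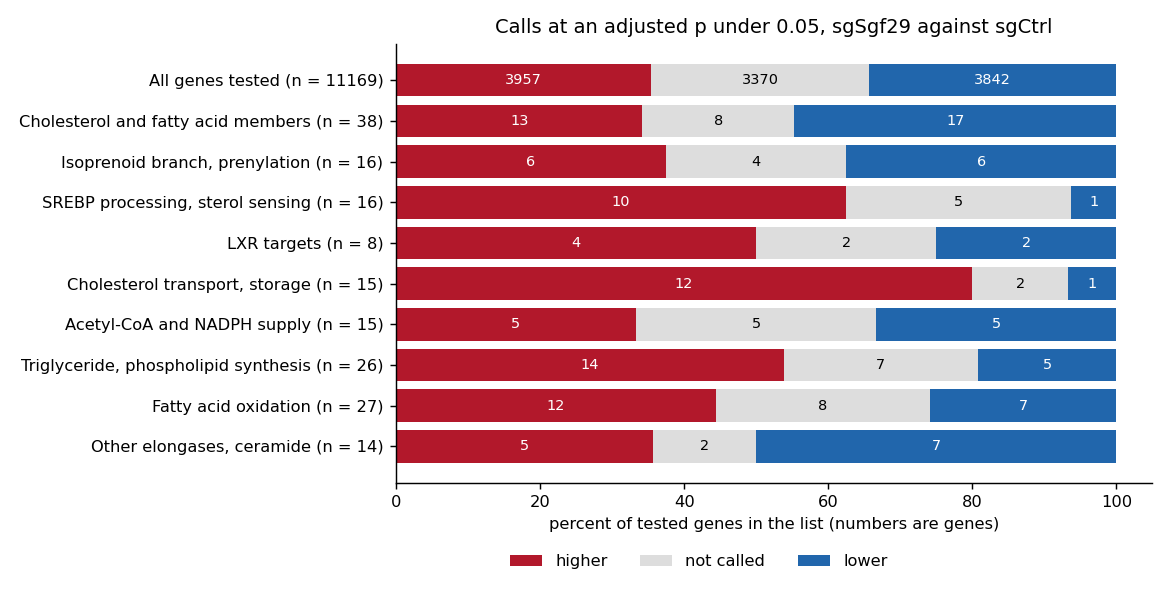
Share of tested genes called higher (left), not called (middle) and lower (right) at an adjusted p under 0.05 from edgeR, sgSgf29 against sgCtrl, for all genes, for the 38 tested members and for 8 lists of lipid genes. The numbers in the bars are genes, with 12 of 15 higher in cholesterol transport and storage, against 13 of 38 among the members. With scaling by library size only, the split of the members was 19 higher and 8 lower, and that of all 11169 genes 5575 higher and 2385 lower.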

How the data were processed

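The authors deposited raw counts per gene of 6 RNA-seq libraries in a single table. Alignment with STAR to mm10 and counting with featureCounts are described in the study's methods, version 2.6.0a of STAR appears in the submitters' notes, and 5 bookkeeping entries are of the kind htseq-count writes. These held 25.8% to 31.4% of the table and were left out. The annotation and strand setting were not given in the sources read here. Chromatin immunoprecipitation samples, among the 14 of the series, were not analysed here.

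Genes passing filterByExpr (a count of 10 at the median library size, 15 in total) were scaled by TMM and tested with glmQLFTest of edgeR 4.0.16 in R 4.3.3 on group alone, with Benjamini-Hochberg adjustment over 11169 genes. Standard errors are the estimate over the root of F. Alternatives used other scalings, DESeq2 1.42.0, limma-voom 3.58.1, other filters and thresholds, a replicate block and each library left out. The members, lists and rule for named genes (every member, and up to 3 called genes per list by adjusted p, none for the LXR targets) were chosen with earlier results of these data known. Tested on simulated data for sgSgf29 against sgCtrl (11074 genes), the fit recovered 97 of 99 changes of 2-fold and 95 of 100 of 1.5-fold, with 15 false calls among 207. Only few genes were changed in that simulation, up as often as down, with a single dispersion for all genes. It therefore cannot show how the fit behaves where 69.8% of all genes are called and the scaling turns directions. Libraries within a group differed by more than counting error (chi-square over degrees of freedom of 4.52 to 15.7). Coordinates and promoters are from RefSeq (GRCm38.p6), and exon lengths and overlaps from GENCODE M21.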

Additional observations from a re-analysis of the deposited data

How the results depend on the processing

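Of the 30 called members, 7 (Idi1, Fdps, Abcg1, Soat1, Soat2, Scd1 and Fads2) kept their call under all 17 alternatives, and 18 kept it under all but the stricter thresholds. With library size alone the genes called lower numbered 2385 over all genes and 8 among the members, and the signs turned for Cyp51 (0.17), Nsdhl (0.087), Ebp (0.032) and Srebf1 (0.059); Hmgcs1, Fdft1, Tm7sf2, Srebf2, Elovl6 and Fads1 passed as higher. Under RLE, upper-quartile and TMM factors without ribosomal protein genes no called member changed its call. A change of at least 1.5-fold left 1723 lower and 2113 higher genes, and 2 lower and 6 higher members. With each library left out, 14 to 17 members were lower and 10 to 13 higher, and the log2 fold change ran over 0 for Fdft1 (-0.064 to 0.10), Srebf2 (-0.022 to 0.093), Elovl6 (-0.048 to 0.22) and Fads1 (-0.029 to 0.13), none of them called. The replicate block gave 3937 lower and 4059 higher genes, with 17 lower and 14 higher members (Hmgcs1 added, edgeR adjusted p = 0.043). The labels give no shared source for the numbers, so the block is not known to be a paired design. Deviations of same-numbered libraries correlated at 0.026, 0.084 and 0.13, and those of different numbers at -0.117 to 0.042. Both sgSgf29 2 and sgSgf29 3 correlated best with the sgCtrl library of their own number, and sgSgf29 1 with sgCtrl 2. These small values do not settle whether libraries were paired. Abca1 and Nr1h3 had at most 12 and 24 counts in a library. Hmgcs1 also passed with upper-quartile factors and with no filter. The cause of these changes was not tested.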
